A study of Mus musculus with 16 samples.

Results

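Ifitm1, Ifitm2, Ifitm3, Bst2 and Ifi27l2a are 5 interferon-inducible genes whose products act at or in membranes, and their levels are described here in peritoneal macrophages and splenic CD4+ T cells of mice given interferon alpha (IFNα). They were taken by gene symbol, as every probe set annotated to 1 of the 5 names, which gave 8 of 24922 probe sets and 5 of 19752 genes. All 5 passed the filter on low values in all 12 contrasts. That filter asks for 2 or more arrays above their own array's median. Among macrophage arrays Ifi27l2a met it only through arrays given IFNα, as did Ifitm3 and Ifitm1 among T-cell arrays. Their tests of IFNα against control thus rest on a filter met through the treated group. With no filter the same members were called in each comparison of IFNα with its control. Each array is an Affymetrix Mouse Gene 1.0 ST array, and each of 8 groups holds 2 arrays of RNA from sorted cells of male mice. A level below is the log2 of the deposited intensity, and a difference is between log2 levels.

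The groups were B10.Q/J macrophages taken 5 h and 2 h after a subcutaneous injection of 10000 units of IFNα and macrophages of the same strain given vehicle. B10.Q/J T cells were taken 5 h and 2 h after IFNα and after vehicle. Macrophages of a C57BL/6 line with a targeted Ifnar1 allele (B6.129S2-Ifnar1tm1Agt/Mmjax, here Ifnar1 KO) were taken 2 h after IFNα, and a further pair is titled without IFNα. B10.Q/J mice were 7 weeks old and carry a natural mutation in Tyk2, the kinase bound to IFNAR1, while Ifnar1 KO mice were 6 weeks old. No array comes from a mouse with both genes intact, so line, age and mutation cannot be told apart. Macrophages were sorted as ICAM2+ F4/80+ cells of the peritoneal cavity, and T cells as TCRB+ CD4+ CD8- cells of the spleen. For that pair the protocol names a 2 h IFNα injection all the same; grouping went by title, so both KO groups would be treated if the protocol holds. Each vehicle pair joins 1 array from 2 h and 1 from 5 h. In their titles 5 B10.Q macrophage arrays have a spleen code, and vehicle T-cell array 1 has a B-cell code. For these arrays cell type and tissue followed the other labels.

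Array medians lay between 7.44 and 7.60, and the 2 arrays of a group correlated at r = 0.984 to 0.997. All 9 macrophage markers lay above the array median on all 10 macrophage arrays, with a mean level of 11.76 to 12.24, and all 7 T-cell markers did so on all 6 T-cell arrays, at 12.01 to 12.20. T-cell IFNα 2 h array 1 stood apart. Its macrophage markers averaged 8.30, with 6 of 9 above the array median, while those of the other 5 T-cell arrays averaged 7.12 to 7.46, with 3 of 9 above it. Array 1 of each Ifnar1 KO group had more B-cell marker signal than the other arrays, 7.63 with IFNα (4 of 6 markers above the median) and 7.42 in the pair titled without it (2 of 6), against 6.69 to 7.00 elsewhere. KO array 1 titled without IFNα also had the highest neutrophil marker level, 6.72, with 1 of 8 above the median. The Ifnar1 probe set read 9.93 and 10.31 on the KO IFNα arrays, 10.26 and 10.09 on the other KO arrays, and 10.09 to 10.46 in B10.Q macrophages, so it gives no check of the genotype.

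Type I interferon binds a receptor made of IFNAR1 and IFNAR2. Signalling through the kinases TYK2 and JAK1 then brings a complex that holds STAT2 and IRF9 to interferon-stimulated response elements. IFITM proteins are small membrane proteins with a CD225 domain that hinder the fusion of enveloped viruses with cell membranes: IFITM1 is found mostly at the cell surface, and IFITM2 and IFITM3 mostly in endosomes. BST2, also called tetherin, holds budding virus particles at the cell surface. IFI27L2A belongs to the IFI27 family of small hydrophobic proteins, many of them interferon-induced.

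The 3 Ifitm genes lie within 55908 bases of chromosome 7 (GRCm38.p6), Ifitm2 at chr7:140954837-140959686, Ifitm1 at chr7:140967429-140969827 and Ifitm3 at chr7:141009590-141010744. Bst2 lies at chr8:71534255-71537472 and Ifi27l2a at chr12:103433873-103443680, and the span annotated to Ifi27l2a contains that of Ifi27. RefSeq promoter windows, from 250 bases before to 50 bases after the annotated start, were matched for 4 of the 5 genes. They are shown because interferon-induced transcription is read through motifs in such windows, and capitals mark matches to the interferon-stimulated response element GAAANNGAAA, searched on both strands. The windows are chr7:141010695-141010994 (minus strand) for Ifitm3, chr7:140955912-140956211 (minus strand) for Ifitm2, chr8:71537423-71537722 (minus strand) for Bst2 and chr7:140967826-140968125 (plus strand) for Ifitm1.
Ifitm3: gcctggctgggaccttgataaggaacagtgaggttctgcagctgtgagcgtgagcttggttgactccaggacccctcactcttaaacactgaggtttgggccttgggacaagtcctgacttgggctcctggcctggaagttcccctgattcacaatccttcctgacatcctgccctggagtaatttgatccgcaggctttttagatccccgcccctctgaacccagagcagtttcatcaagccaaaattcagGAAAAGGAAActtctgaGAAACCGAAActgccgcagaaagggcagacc
Ifitm2: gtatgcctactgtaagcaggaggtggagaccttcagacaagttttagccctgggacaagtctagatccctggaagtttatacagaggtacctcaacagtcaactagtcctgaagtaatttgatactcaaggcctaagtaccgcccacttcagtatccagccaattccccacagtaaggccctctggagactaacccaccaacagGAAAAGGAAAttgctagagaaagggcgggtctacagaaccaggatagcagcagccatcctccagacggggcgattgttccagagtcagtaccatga
Bst2: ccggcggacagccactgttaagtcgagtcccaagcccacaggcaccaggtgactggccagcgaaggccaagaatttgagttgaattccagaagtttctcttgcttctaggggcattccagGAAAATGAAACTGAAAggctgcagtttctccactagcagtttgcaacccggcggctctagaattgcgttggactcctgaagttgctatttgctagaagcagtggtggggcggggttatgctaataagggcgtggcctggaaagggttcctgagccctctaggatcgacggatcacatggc
Ifitm1: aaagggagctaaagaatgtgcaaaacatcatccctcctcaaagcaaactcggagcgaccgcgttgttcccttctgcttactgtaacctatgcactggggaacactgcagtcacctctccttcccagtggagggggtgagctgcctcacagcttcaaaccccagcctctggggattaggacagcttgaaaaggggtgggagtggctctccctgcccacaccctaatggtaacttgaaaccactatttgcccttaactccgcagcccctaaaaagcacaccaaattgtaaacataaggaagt

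Of these windows, 3 held the element and that of Ifitm1 held none. The windows of Ifitm1 and Ifitm2 lie wholly inside the gene spans given above, while those of Ifitm3 and Bst2 cross the outer end. The sequence at the outer start of Ifitm1 and of Ifitm2 was therefore not searched. Ifitm3 held GAAAAGGAAA at bases 3 to 12 and GAAACCGAAA at bases 20 to 29 from its start, both after it. Ifitm2 held GAAAAGGAAA 46 to 37 bases before its start. Bst2 held GAAAATGAAA 130 to 121 and GAAACTGAAA 124 to 115 bases before its start, which overlap. At least 1 match stood in 1131 of 32851 RefSeq promoter windows of this length (3.44%) and 2 or more in 74 (0.225%). The gamma-activated site TTCNNNGAA stood once each in the windows of Ifitm3 and Bst2, overlapping the second element of Ifitm3 and the first of Bst2, and in 2726 of all windows (8.3%). A match describes letters only.

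**Figure D1:**
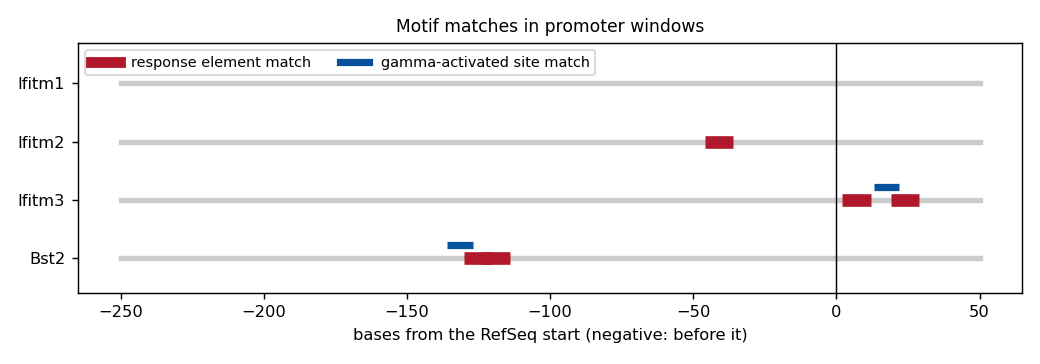
Positions of motif matches in the promoter windows of Ifitm1, Ifitm2, Ifitm3 and Bst2, in bases from the annotated start (x axis). Red bars are interferon-stimulated response element matches and blue bars gamma-activated site matches, and the matches of Ifitm3 lie after the start while those of Ifitm2 and Bst2 lie before it.

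The 5 genes fell into different patterns of level. Ifitm2 and Ifitm3 differed mainly between the cell types, Ifi27l2a differed with IFNα in both B10.Q cell types, Bst2 varied within a narrow range, and Ifitm1 stayed near the array median on all arrays.

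Without IFNα, macrophages had far more Ifitm2 and Ifitm3 signal than T cells and less Ifi27l2a signal. Ifitm3 stood at 13.00 and 12.94 in vehicle B10.Q macrophages, against 5.34 and 5.88 in vehicle T cells. The macrophage values lay at about the 99.1st percentile of their arrays on average and the T-cell values at the 13.6th. The difference was 7.36 ± 0.33 (SE, n = 2 each), a 164-fold higher intensity in macrophages, with an adjusted p of 8.88e-10 by limma. Since the T-cell arrays lay below their lower quartile here, the fold depends on how dim signal is measured. Ifitm2 stood at 12.91 and 12.84 in macrophages, against 7.76 and 7.71 in T cells, a difference of 5.14 ± 0.18 (35.3-fold, limma adjusted p = 1.22e-10). The other probe sets of Ifitm2 gave 4.90 ± 0.17 and 4.85 ± 0.24, so all 3 placed it higher in macrophages.

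Ifi27l2a ran the other way. It stood at 7.34 and 7.38 in vehicle macrophages, against 8.51 and 8.43 in vehicle T cells, a difference of -1.11 ± 0.17 (limma adjusted p = 1.14e-04), so that the intensity in macrophages was 0.464 of that in T cells. Ifitm1 stood at 7.58 and 7.54 in macrophages, against 7.15 and 7.17 in T cells, a small difference of 0.40 ± 0.15 (limma adjusted p = 0.0308). That call was lost in 5 of 20 alternatives, with each array's median subtracted and when any of the 4 vehicle arrays was left out (adjusted p of up to 0.112). Bst2 stood at 8.95 and 8.92, against 8.67 and 8.72, and did not pass (0.24 ± 0.11, limma adjusted p = 0.0829). In this contrast 3 members, Ifitm1 among them, were higher in macrophages and 1 was lower, where 28.1% of 11161 genes tested were called higher and 34.1% lower, so a call by itself was common here. In such bulk samples, fewer cells of a type and less RNA per cell cannot be told apart.

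Ifitm6, the CD225 gene next to Ifitm3, had the same direction, at 11.88 and 12.12 in vehicle macrophages and 5.85 and 5.69 in vehicle T cells (6.23 ± 0.23, limma adjusted p = 1.69e-10). Of the 9 genes tested in the list of CD225 and Ifi27 relatives, Ifitm6 was higher and Prrt1 lower (-0.56 ± 0.13, limma adjusted p = 0.00182), and the list's median difference was -0.09, beside -0.07 over all genes. Of 9 tested genes that act on viruses at membranes, 6 were higher in macrophages and 1 lower, with a median of 0.45. The 4 that differed most were Marchf8, a ubiquitin ligase gene (2.05 ± 0.17), Cd74, the MHC class II invariant chain (1.43 ± 0.18), Ncoa7 (0.96 ± 0.10) and Ly6e, a lipid-anchored surface protein gene, which was lower (-0.90 ± 0.11).

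**Figure D2:**
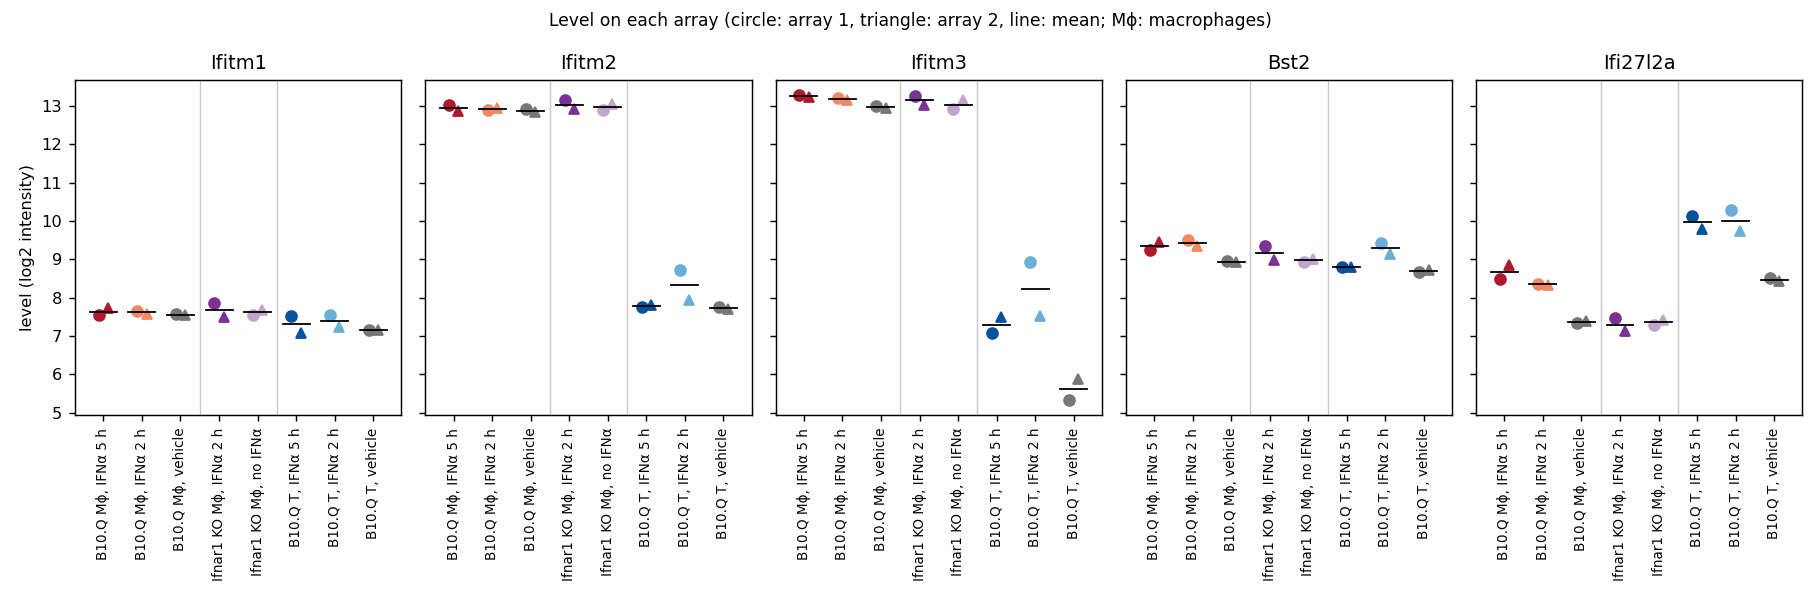
Log2 level of each gene (y axis) on each of 16 arrays, by group (x axis), where circles are array 1, triangles array 2 and lines the mean of 2 arrays. Ifitm2 and Ifitm3 lie between 12.84 and 13.28 on the macrophage arrays and between 5.34 and 8.92 on the T-cell arrays, while Ifi27l2a is above its vehicle arrays in each B10.Q group given IFNα.

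In B10.Q macrophages Ifi27l2a rose after IFNα, and the other 4 genes did not pass the test. At 5 h and 2 h Ifi27l2a stood at 8.48 and 8.84, and at 8.35 and 8.34, against 7.34 and 7.38 with vehicle. All 4 arrays with IFNα lay above both vehicle arrays. The rise was 1.30 ± 0.15 at 5 h (2.46-fold, limma adjusted p = 0.00292) and 0.99 ± 0.15 at 2 h (1.98-fold, limma adjusted p = 0.015). One member of 5 was thus called higher at each time, where 0.836% of 10531 genes were called higher at 5 h and 0.798% at 2 h. At 2 h the call was lost when any of the 4 arrays of the 2 groups was left out (adjusted p = 0.0819 to 0.173), although the difference stayed between 0.97 and 1.00. Under a filter at the 70th percentile Ifi27l2a was no longer tested.

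Bst2, the tetherin gene, stood at 9.25 and 9.45 at 5 h and 9.51 and 9.35 at 2 h after IFNα, against 8.95 and 8.92 with vehicle. The groups did not overlap, but the differences of 0.42 ± 0.14 and 0.50 ± 0.14 had limma adjusted p-values of 0.721 and 0.395. Ifitm3 stood at 13.28 and 13.23 at 5 h and 13.21 and 13.15 at 2 h, against 13.00 and 12.94 with vehicle. Here too the groups were apart, by 0.29 ± 0.13 and 0.21 ± 0.13, and neither difference passed (limma adjusted p = 1 and 0.984). With vehicle, Ifitm3 lay at about the 99.1st percentile of its arrays on average. Its intensities were 8200.4 and 7833.2, where the highest on those arrays were 18488.74 and 19145.06.

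Ifitm2 read 13.01 and 12.85 at 5 h and 12.89 and 12.95 at 2 h, against 12.91 and 12.84 with vehicle. Ifitm1 read 7.54 and 7.74 at 5 h and 7.66 and 7.58 at 2 h, against 7.58 and 7.54. At 5 h both genes overlapped with vehicle, and their differences were 0.08 or less at both times. The 95% intervals allowed at most 0.39 for Ifitm1 and 0.33 for Ifitm2. Arrays of a group lay wholly above vehicle for 3 members at 5 h and 4 at 2 h, where 19.1% and 11.3% of all genes did so. Ifitm1 was apart at 2 h only by an intensity of 191.9 against 190.7 with vehicle, and its other probe set overlapped. Ifi27l2a, counted at both times, met the filter only through arrays given IFNα, which favours such counts. Between 5 h and 2 h no member was called (1 gene of all, 0.0095%), and the largest difference was that of Ifi27l2a, 0.32 ± 0.15.

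Ifnar1 KO macrophages showed no called change in any of the 5 genes. Ifi27l2a stood at 7.48 and 7.12 with IFNα, against 7.30 and 7.42 in the pair titled without it, a difference of -0.06 ± 0.15. Bst2 stood at 9.35 and 8.97, against 8.92 and 9.02, so the groups overlapped (0.19 ± 0.14). The highest of these Bst2 values, 9.35, was on the array with the highest B-cell marker level, while the other KO array with B-cell marker signal read 8.92. The part of that signal in the values was not tested. Without KO IFNα array 1 the Bst2 difference was 0.00.

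Ifitm3 read 13.26 and 13.03 with IFNα, against 12.91 and 13.15. Ifitm2 read 13.14 and 12.91, against 12.90 and 13.05, and Ifitm1 7.87 and 7.51, against 7.56 and 7.68. All 5 genes overlapped between the groups, with differences between -0.06 and 0.19. By limma 0 of 5 members were called, as were 0% of 10531 genes, of which 460 had an unadjusted p under 0.05. Without KO IFNα array 2, 1191 genes were called, but no member.

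No member was called between B10.Q vehicle macrophages and the Ifnar1 KO pair titled without IFNα. The differences, B10.Q vehicle minus KO titled without IFNα, ran from -0.10 for Ifitm2 to 0.00 for Ifi27l2a, with 0 of 5 called (0.541% of all genes). The 95% interval for Ifi27l2a was -0.34 to 0.34.

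The 2 h responses of Ifi27l2a in B10.Q and KO macrophages differed by 1.05 ± 0.22 (B10.Q minus KO), with a 95% interval of 0.56 to 1.53. Its unadjusted p was 7.26e-04 and its limma adjusted p 0.103, so it did not pass, and 0 of 5 members did, where 0.408% of all genes were called. Leaving out KO IFNα array 1 or array 2 brought it past the threshold, at 1.23 (adjusted p = 0.0103) and 0.86 (adjusted p = 0.0278). The KO IFNα group is then 1 array assumed to vary like the other groups, and 94 and 491 genes in all were called, against 43 as reported. For Bst2 the difference of responses was 0.30 ± 0.20 and for Ifitm3 0.10 ± 0.18. Ifitm2 and Ifitm1 were at -0.01 ± 0.17 and -0.00 ± 0.20.

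**Figure D3:**
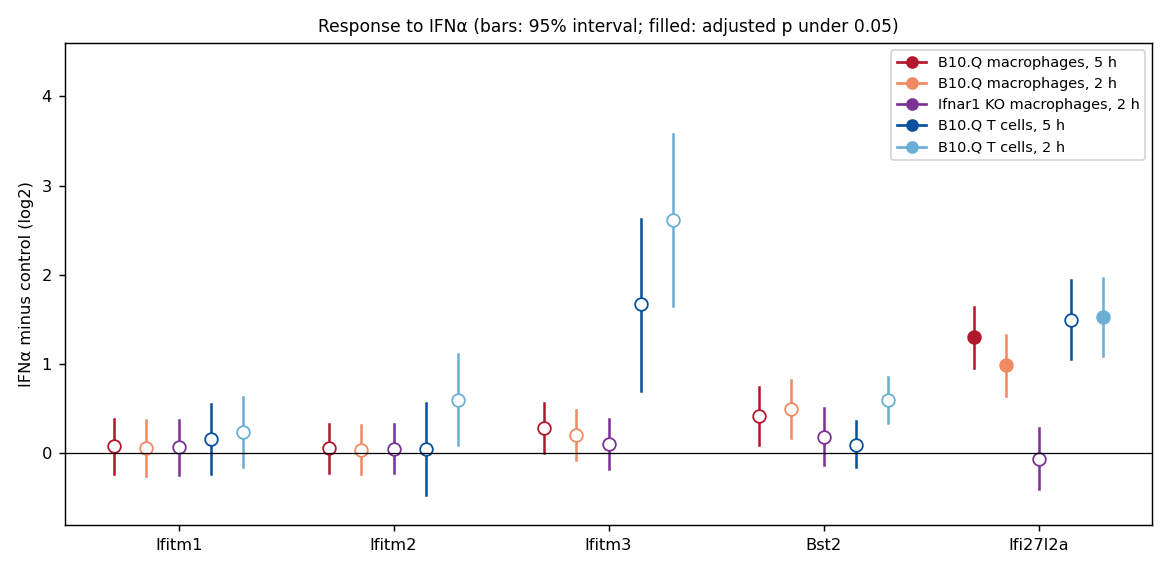
Difference in log2 level, IFNα minus its own control (y axis), for each gene (x axis) in 5 comparisons, where bars are 95% intervals from limma and filled points have an adjusted p under 0.05. Ifi27l2a has the filled points, at 1.30 and 0.99 in B10.Q macrophages and 1.53 in T cells at 2 h, and lies at -0.06 in Ifnar1 KO macrophages.

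In T cells IFNα was followed by higher Ifi27l2a and by the widest difference of the 5 genes in Ifitm3. Ifi27l2a stood at 10.13 and 9.80 at 5 h and 10.28 and 9.73 at 2 h, against 8.51 and 8.43 with vehicle. All 4 treated arrays lay more than 1 log2 unit above vehicle. The rise at 2 h was 1.53 ± 0.19 (2.89-fold, limma adjusted p = 0.0284). The difference at 5 h was nearly as large, 1.50 ± 0.19 (2.82-fold), but its limma adjusted p was 0.119. With the replicate number as a block it passed (adjusted p = 0.0383), as it did with only the groups compared (3.93e-04).

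Ifitm3 stood at 7.07 and 7.49 at 5 h and 8.92 and 7.53 at 2 h, against 5.34 and 5.88 with vehicle. Each treated array lay above both vehicle arrays, and the 2 arrays at 2 h differed from each other more than the others did (SD 0.98, against 0.30 at 5 h and 0.38 with vehicle). The difference was 1.67 ± 0.41 at 5 h (3.18-fold, limma adjusted p = 0.903) and 2.61 ± 0.41 at 2 h (6.11-fold, limma adjusted p = 0.0685). Neither passed. By difference Ifitm3 ranked 4th among 10112 genes at 5 h and 9th at 2 h. It met the filter here only through arrays given IFNα, which favours a high rank. Both vehicle arrays lay below their lower quartiles of 6.31 and 6.33, so these folds and ranks depend on how dim signal is measured.

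The array with the higher Ifitm3 value at 2 h is the one with the macrophage marker signal. There Prg4, a gene of resident peritoneal macrophages, read 10.99, against 8.74 on the other 2 h array and 7.62 to 7.84 on the 4 remaining T-cell arrays. Adgre1, which encodes F4/80, read 8.63, against 6.82 and then 5.88 to 6.65. A share is the excess of an array's intensity over vehicle T cells. It is given as a percentage of the same excess in B10.Q macrophages at the same time after IFNα. The median share of the 9 markers was 2.25% on 2 h array 1 and 0.349% on array 2. On the 5 h arrays it was -0.0145% and -0.0202%. The share of Ifitm3 was 4.71% and 1.46% on the 2 h arrays and 0.868% and 1.34% on the 5 h arrays. Each lay above the marker median and, on both 2 h arrays, below the share of Prg4, the highest marker there. On the 5 h arrays each lay above the highest marker share, which was 0.369% on array 1 and 0.266% on array 2. Over the single markers the share on 2 h array 1 ran from 0.151% to 16%, the last being Prg4.

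Without 2 h array 1, Ifitm3 was 1.92 above vehicle at 2 h (limma adjusted p = 0.00326) and 1.67 at 5 h (0.0032), and Ifi27l2a was called at both times (0.00229 at 2 h and 4.38e-04 at 5 h). Without 2 h array 2, Ifitm3 was called as well, at 3.31 (adjusted p = 3.16e-05) and 1.67 (0.00327). In both cases the 2 h group is 1 array that is assumed to vary like the other groups, and more genes were called in all, 71 or 1817 at 2 h against 29 as reported, and 65 at 5 h against 2. After subtraction of the median marker share, chosen after seeing the data, Ifitm3 read 8.14 and 7.25 at 2 h. The share differed widely between markers, and the part of macrophage signal in the Ifitm3 values was not tested.

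Ifitm2 stood at 7.75 and 7.82 at 5 h and 8.72 and 7.95 at 2 h, against 7.76 and 7.71 with vehicle. It overlapped with vehicle at 5 h (0.05 ± 0.22) and was above it at 2 h (0.60 ± 0.22, limma adjusted p = 0.763), again with the higher value on 2 h array 1. With the median share subtracted in the same way the 2 h values were 7.99 and 7.79, and without 2 h array 1 the difference was 0.21. Its share on that array, 2.79%, was near the marker median, and that of Ifitm6 was 1.36%. Of its other probe sets, 1 read 8.14 and 7.05 at 2 h, against 7.38 and 7.27 with vehicle, and so did not separate the groups. The other read 8.34 and 7.71, against 7.55 and 7.65, and did, without a call (0.42 ± 0.19, limma adjusted p = 0.76). At 5 h the former read 7.15 and 7.12 and the latter 7.47 and 7.39. Both thus lay wholly below vehicle at 5 h, where the probe set used overlapped with it. The latter differed by -0.17 ± 0.19 and was not called.

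Bst2 stood at 8.81 and 8.79 at 5 h and 9.43 and 9.15 at 2 h, against 8.67 and 8.72 with vehicle. At 2 h it lay above vehicle by 0.60 ± 0.11 (1.52-fold, limma adjusted p = 0.123) and at 5 h by 0.10 ± 0.11. Ifitm1 stood at 7.53 and 7.09 at 5 h and 7.56 and 7.23 at 2 h, against 7.15 and 7.17. Its differences of 0.16 ± 0.17 and 0.24 ± 0.17 did not pass, and at 5 h its groups overlapped.

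At 2 h all 5 members lay wholly above vehicle, as did 14.5% of all genes, and 1 of 5 was called higher, as were 0.277%. Ifitm3 and Ifitm1 met the filter here only through arrays given IFNα, which favours such counts. The second probe set of Ifitm1 overlapped with vehicle at 2 h (5.84 and 5.52, against 5.53 and 5.68), as did 1 other probe set of Ifitm2. At 5 h 3 of 5 lay above vehicle, as did 21.7%, and 0 of 5 were called, where 2 genes of 10112 were (0.0198%) and 387 genes had an unadjusted p under 0.05. Of the members, Ifitm3 and Ifi27l2a had one at 5 h. The call of Ifi27l2a at 2 h was lost without vehicle array 1 (adjusted p = 0.449), without vehicle array 2 (0.511) or without either 5 h array (0.109).

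**Figure D4:**
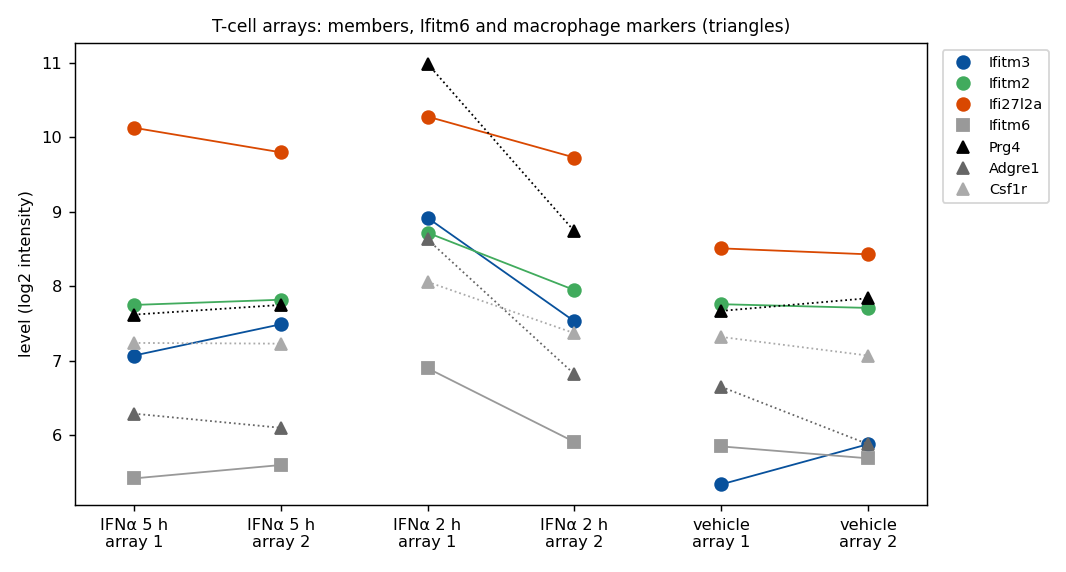
Log2 level (y axis) on the 6 T-cell arrays (x axis) of Ifitm3, Ifitm2 and Ifi27l2a (circles), Ifitm6 (squares) and the macrophage genes Prg4, Adgre1 and Csf1r (triangles), with lines joining the 2 arrays of a group. On IFNα 2 h array 1 Prg4 reads 10.99 and Ifitm3 8.92, while on the 5 h arrays Ifitm3 reads 7.07 and 7.49 with Prg4 at 7.62 and 7.75.

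No member was called between 5 h and 2 h in T cells. Bst2 was lower at 5 h than at 2 h by -0.50 ± 0.11 (unadjusted p = 0.00248, limma adjusted p = 0.355), and the 2 arrays at 5 h lay below both at 2 h. Ifitm2 and Ifitm3 were at -0.55 ± 0.22 and -0.94 ± 0.41 and were also apart, while Ifi27l2a differed by -0.04 ± 0.19. Thus 3 of 5 lay wholly below, as did 15.6% of all genes, and 0 of 5 were called, where 0.00989% of all genes were. Without 2 h array 2, which leaves the array with macrophage signal as the only one of its group, 3 members were called here, Ifitm2, Ifitm3 and Bst2. Without 2 h array 1 none was, and Ifitm3 was at -0.25, Ifitm2 at -0.16 and Bst2 at -0.36.

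For Ifitm3 the response in macrophages minus that in T cells was -2.40 ± 0.47 at 2 h (unadjusted p = 2.43e-04, limma adjusted p = 0.209) and -1.38 ± 0.47 at 5 h (adjusted p = 0.595). Neither passed over all genes. With only the groups compared, the 5 h difference passed (adjusted p = 0.0154). With 1 array left out the difference for Ifitm3 ran from -3.10 to -1.70 at 2 h and from -1.65 to -1.11 at 5 h. The T-cell response at 2 h includes the array with macrophage marker signal. At both times it rests on vehicle values below the lower quartile of their arrays. Ifi27l2a was at -0.55 ± 0.24 at 2 h and -0.20 ± 0.24 at 5 h. For Ifi27l2a the difference with 1 array left out ran from -0.82 to -0.27 at 2 h and from -0.38 to -0.02 at 5 h. Bst2 was at -0.10 ± 0.16 and 0.31 ± 0.16, and the intervals of both genes at 5 h held 0. No member was called at either time, where 0.0269% of 11161 genes were called at 2 h and 0.251% at 5 h.

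The order of the 8 group means shows the same split. For Ifitm2 and Ifitm3 all 5 macrophage groups came first, with a gap of 4.54 and 4.74 down to the highest T-cell group. Among the macrophage groups neighbours in that order overlapped, except Ifitm3 at 5 h and 2 h in B10.Q cells, which were 0.07 apart. For Ifi27l2a the order was T cells at 2 h, T cells at 5 h (9.97, only 0.04 lower), macrophages at 5 h (8.66), T cells with vehicle (8.47), macrophages at 2 h (8.35), and the B10.Q vehicle, KO titled without IFNα and KO IFNα groups at 7.36, 7.36 and 7.30. Macrophages 5 h after IFNα thus overlapped with T cells that had none, and the last 3 groups overlapped with each other. Bst2 means spanned 9.43 to 8.69 and Ifitm1 means 7.69 to 7.16, with most neighbours overlapping. The second probe set of Ifitm1 read 5.28 to 6.64 on the 16 arrays, and in T cells it correlated with the first at r = 0.49 over 6 arrays.

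Most other interferon response genes had larger differences than the 5 in macrophages. Of 31 tested genes of a list of interferon response genes, 29 rose at 5 h and 28 at 2 h in B10.Q macrophages, with medians of 2.04 and 1.99, beside -0.01 and -0.06 over all genes. The 4 largest at 2 h were the antiviral GTPases Mx1 (5.22 ± 0.26) and Mx2 (4.63 ± 0.24), Ifit1 (4.86 ± 0.42), whose product binds viral RNA, and Rtp4 (4.56 ± 0.25). Usp18, which encodes a brake on the receptor, rose by 4.34 ± 0.42 and Irf7, a transcription factor of the interferon response, by 2.70 ± 0.28. Of the list's genes, Isg20 did not pass at either time (0.95 ± 0.21 at 5 h and 0.79 ± 0.21 at 2 h). In KO macrophages 0 of the 31 changed, with a median of -0.22, and for 19 the B10.Q response was larger than the KO response (median difference 2.26).

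In T cells 13 of the 31 rose at 2 h (median 1.65) and 1, Rtp4, at 5 h (2.14 ± 0.15; median of the list 0.65). Ifit1 rose by 5.24 ± 0.28, Usp18 by 3.43 ± 0.27, Rtp4 by 3.34 ± 0.15 and Mx2 by 2.65 ± 0.31 at 2 h. Beside those values, Ifi27l2a at 5 h and 2 h differed by 0.04, while Usp18 was lower at 5 h than at 2 h by -1.95 ± 0.27 (limma adjusted p = 0.169), which did not pass.

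**Figure D5:**
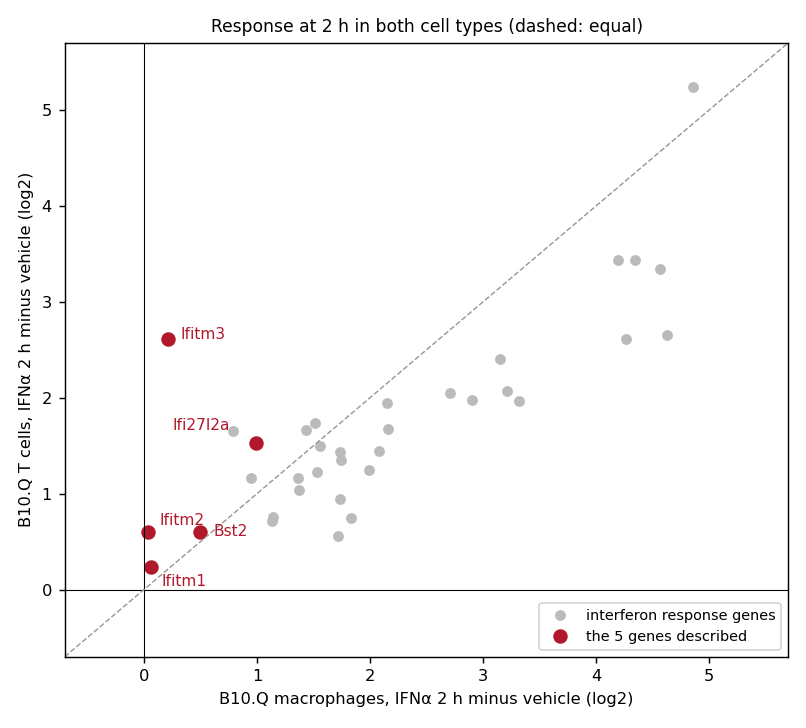
Difference in log2 level at 2 h, IFNα minus vehicle, in B10.Q macrophages (x axis) and B10.Q T cells (y axis), for the 5 genes (red) and the tested interferon response genes (grey). Ifitm3 lies at 0.21 in macrophages and 2.61 in T cells, off the dashed line of equal response. Its T-cell value includes the 2 h array with macrophage marker signal.

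Among the list of CD225 and Ifi27 relatives none was called in any of the 5 comparisons of IFNα with its control, of 7 tested in macrophages and 8 in T cells, and its medians lay between -0.01 and 0.06. Ifitm6 stood at 12.12 and 12.26 at 5 h and 12.23 and 12.22 at 2 h in B10.Q macrophages, against 11.88 and 12.12 with vehicle, and its differences of 0.19 ± 0.12 and 0.22 ± 0.12 did not pass. In the fit of the T-cell arrays alone it fell under the filter. Ifi27, which overlaps Ifi27l2a on the map, stood at 9.91 and 10.03 at 5 h and 9.66 and 9.52 at 2 h in T cells, against 9.32 and 9.39 with vehicle. Its differences were 0.62 ± 0.10 (limma adjusted p = 0.263) and 0.24 ± 0.10, beside 1.50 and 1.53 for Ifi27l2a. Signal of overlapping genes, or of the closely related Ifitm genes, cannot be separated with certainty by probe set. Of the membrane-acting antiviral genes tested, only Rsad2, which encodes viperin, rose, by 3.73 at 5 h and 4.26 at 2 h in macrophages and 2.61 at 2 h in T cells. Of the 12 tested type I interferon signalling genes, 3 rose in B10.Q macrophages at both times, Irf7, Stat2 and Irf9, and 2 rose in T cells at 2 h, Irf7 and Irf9.

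The 5 genes on either side of each member came to 30 further genes, of which 18 were tested in macrophages and 17 in T cells, and 0 were called in any of the 5 comparisons with IFNα. Ddx24, an RNA helicase gene beside Ifi27l2a, had the same direction in each B10.Q comparison, at 0.53 ± 0.12 at 5 h and 0.45 ± 0.12 at 2 h in macrophages and 0.30 ± 0.14 and 0.69 ± 0.14 in T cells, none of which passed.

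The genes most like each member in level over the 16 arrays are given as a description, since the arrays share cell types and treatments. For Ifitm2 they were Fcgr3, Dab2, Ccr1, Bst1 and Tlr13, all at r = 0.999, and for Ifitm3 Cybb (0.992), Ccl6, Lyz1, Wls and Serpinb2 (0.989 each). For Bst2 they were Trim30d (0.897), Tor1aip1, Cmpk2, Morc3 and Ifih1, and for Ifi27l2a Mitd1 (0.945), Kat2b, Ddx24, Ascc3 and Adar. Those of Ifitm1 were Isoc1 (0.868), Ufm1, Mtx2, Txndc9 and Myo9a. After each cell type's own mean was subtracted, Ifi27l2a was closest to Trim12c (0.946), Trim30d, Dhx58, Trim30a and H2-T24, and Bst2 to Tor1aip1 (0.925), Sp140, Apobec1, Ifi207 and Ifit3. Ifitm2 was then closest to Fabp7 (0.966), Serpinb10, Prg4, Ly86 and Ccl6, and Ifitm3 to BC147527 (0.851), Cybb, Ccr1, Wls and Ccl6. The list for Ifitm2 holds Prg4, the macrophage marker that was high on T-cell IFNα 2 h array 1. Ifitm1 was closest to Snord53 (0.787), Iqcc, F730043M19Rik, Elovl6 and Snrpb2.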

How the data were processed

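The deposited table holds 1 linear intensity per probe set and array, and all 16 arrays were used; the authors summarised them with RMA in Affymetrix Power Tools, per the submitters' processing notes, which give no versions. Per the labels' protocols, RNA was taken in TriZol and amplified by the Ambion WT Expression Kit. Of 24922 probe sets, 21425 carried 1 gene symbol. A gene was represented by its probe set with the highest mean log2 intensity, and tested where 2 or more arrays in the model exceeded their array's median. Limma 3.58.1 (lmFit, eBayes) in R 4.3.3 was fitted to log2 intensities in 3 models (10 macrophage, 6 T-cell and 12 B10.Q arrays), with 12 contrasts, two-sided, adjusted by Benjamini-Hochberg over all genes tested. Calls are at an adjusted p under 0.05. Changes of response are differences of 2 contrasts in 1 model. The procedure was tested on simulated data.

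Groups followed the titles. No label states whether the 2 arrays of a group are of separate mice, so p-values here measure only the spread between these samples, which may be technical. Precision is limited by the number of arrays. The members and gene lists were chosen with earlier results of these data known. Genes named were the 5 members, their CD225 and Ifi27 relatives, the 5 neighbours on either side, the 5 genes of closest level, up to 4 called genes per list with the largest difference, and Ifnar1, Ifnar2, Tyk2, Irf7 and Usp18; Isg20 and the macrophage markers Prg4, Adgre1 and Csf1r were named after their values were seen. Promoter sequences and coordinates are RefSeq's for GRCm38.p6. The alternatives were no filter or one at the 70th percentile, quantile normalization, median subtraction, a trend and robust variance, every probe set, the replicate number as a block, only the groups compared, all 16 arrays, each array left out, and, for T cells, subtraction of macrophage signal, which was chosen after seeing the data.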

Additional observations from a re-analysis of the deposited data

How the results depend on the processing

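Of 60 differences of members, 7 were called. Over 1090 values under alternatives, 1047 kept their side of the threshold, 15 lost a call, 28 gained one and 0 called values changed sign. Among uncalled values 43 differed in sign from the reported one, by rounded values with 0.00 taken as not positive. The number of members called was the same in 187 of 225 counts. With a filter at the 70th percentile it was 0 in B10.Q macrophages at 2 h and 0 at 5 h, since Ifi27l2a was not tested. For T cells at 2 h it was 0 after quantile normalization (Ifi27l2a adjusted p = 0.053), 2 after median subtraction, 0 with only the groups compared and 2 with all 16 arrays. For T cells at 5 h it was 1 with the replicate block, 1 with only the groups compared and 1 with all 16 arrays. For the response of macrophages minus T cells at 5 h it was 1 with only the groups compared. Except for the filter, the cause was not tested.

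With arrays left out in turn, the count ran from 0 to 1 in B10.Q macrophages at 2 h, 0 to 1 for B10.Q minus KO responses, 0 to 4 in T cells at 2 h, 0 to 2 at 5 h, 0 to 3 for T cells at 5 h against 2 h, 0 to 3 for macrophage minus T-cell responses at 2 h 0 to 1 at 5 h and 3 to 5 for vehicle macrophages against T cells (4 as reported). The counts of 4, and of 3 in T cells at 5 h against 2 h, come without T-cell IFNα 2 h array 2, when 1817 genes in all were called at 2 h, beside 29 as reported. Over all alternatives, genes called ran from 36 to 134 in B10.Q macrophages at 2 h (84 as reported), 29 to 203 at 5 h (88), 0 to 65 in T cells at 5 h (2) and 8 to 491 for B10.Q minus KO responses (43).

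The replicate numbers of the titles were not treated as pairs. Over 28 pairs of groups, deviations of same-numbered arrays correlated at -0.28 to 0.45. Of these, 10 exceeded 0.1 and 7 lay beyond 0.1 on the negative side. The highest joined KO macrophages at 2 h with B10.Q macrophages at 5 h, which are of different lines. The check thus cannot show whether same-numbered arrays share a mouse. Under the replicate block 1 of 60 differences gained a call, Ifi27l2a in T cells at 5 h (adjusted p = 0.0383), and 0 lost one. With 2 arrays a group, no extreme array within a group can be tested.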
